A study of Mus musculus with 2 samples.

Results

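The genes described here encode the factors that start and extend protein chains on cytosolic ribosomes, measured in mouse spleen RNA. Members were all genes whose platform symbol begins with Eif or Eef and a digit, without Eif2s3x and Eif2s3y, together with Tpt1. The rule found 48 of the 8251 named genes, read by 65 probe sets that name 1 gene each. The study hybridised purchased total RNA of mouse spleen to 2 oligonucleotide arrays, called array 1 and array 2 here, and these form 1 group. The labels give no strain, genotype, age or treatment, and do not say whether the arrays shared a tube or a labelling reaction, so the spread between them may be technical only. There was no second condition, and no p-value was computed.

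Translation begins when eIF2 brings the initiator tRNA to the small ribosomal subunit, on which eIF3, eIF1, eIF1A and eIF5 assemble. The eIF4 factors bind and unwind the capped end of the mRNA, and after the start codon is found eEF1 delivers each further tRNA and eEF2 moves the ribosome along. Kinases that phosphorylate eIF2 slow initiation under stress, because phosphorylated eIF2 blocks eIF2B, the exchange factor that recharges it. The spleen holds lymphocytes, macrophages and, in the mouse, red cell precursors, in which the haem-regulated eIF2 kinase matches globin synthesis to haem.

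A gene's value is the intensity of its brightest probe set by mean log2 signal, in the arbitrary units of the deposited table, and errors are SDs of the 2 arrays. Bright genes are those whose intensity passed the 60th percentile of each array, which was 346.32 for array 1 and 342.22 for array 2. Background was read from 15 control probe sets for bacterial transcripts, with a median of 20.6 and 22.9 and a top value of 95 and 76.2 on arrays 1 and 2; this top value is called the control limit below. Brightness depends on the probe sequence as well as on the transcript, so genes are set against these limits and not ranked against each other. The markers fixed for the spleen were bright for 4 of 4 B cell genes, 5 of 5 T cell genes, 5 of 5 macrophage genes and 4 of 4 erythroid genes, including Cd79a at 10602 ± 380.0 (SD, n = 2 here and below), Cd79b at 7162 ± 98.4, Cd3e at 1190 ± 48.5, Cd3d at 590.0 ± 26.3, Csf1r at 3581 ± 84.8, Adgre1 at 463 ± 23.2, Alas2 at 12732 ± 125 and Klf1 at 3177 ± 138. Markers of pancreatic acinar cells, which make large amounts of secreted protein, were bright for 8 of 8 measured genes, from Cela2a at 974 ± 92.3 to Ctrb1 at 24153 ± 1240, with Cela1 at 8880 ± 57.6. Their part in the levels of translation factors was not tested. Of the liver markers 2 of 4 were bright, among them Alb at 2384 ± 302 and Apoa1 at 581 ± 71.6. In bulk RNA, fewer cells of a type and less RNA per cell cannot be told apart.

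Of the 48 translation factor genes 31 were bright in spleen RNA, or 64.6%, against 45.2% of all 8251 named genes. With the mean over probe sets in place of the brightest one 23 of 48 were bright, beside 38.3% over all named genes, and with the cutoff raised to the 75th percentile 22 of 48 were, against 28.5%. Initiation factors were bright in 24 of 31 cases, elongation factors in 4 of 7 and eIF2 kinases in 1 of 4. The median log2 signal was 9.56 for initiation, 8.87 for elongation and 7.49 for the eIF2 kinases, beside 8.29 for all named genes. Another 10 members passed the control limit of each array without being bright, and 7 did not pass it on at least 1 array. Of all named genes 73.9% passed it on both. The elongation class is small and its values are far apart, so its median is that of 1 gene, Eef1b2. This gene was bright by 1 of its 2 probe sets.

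**Figure D1:**
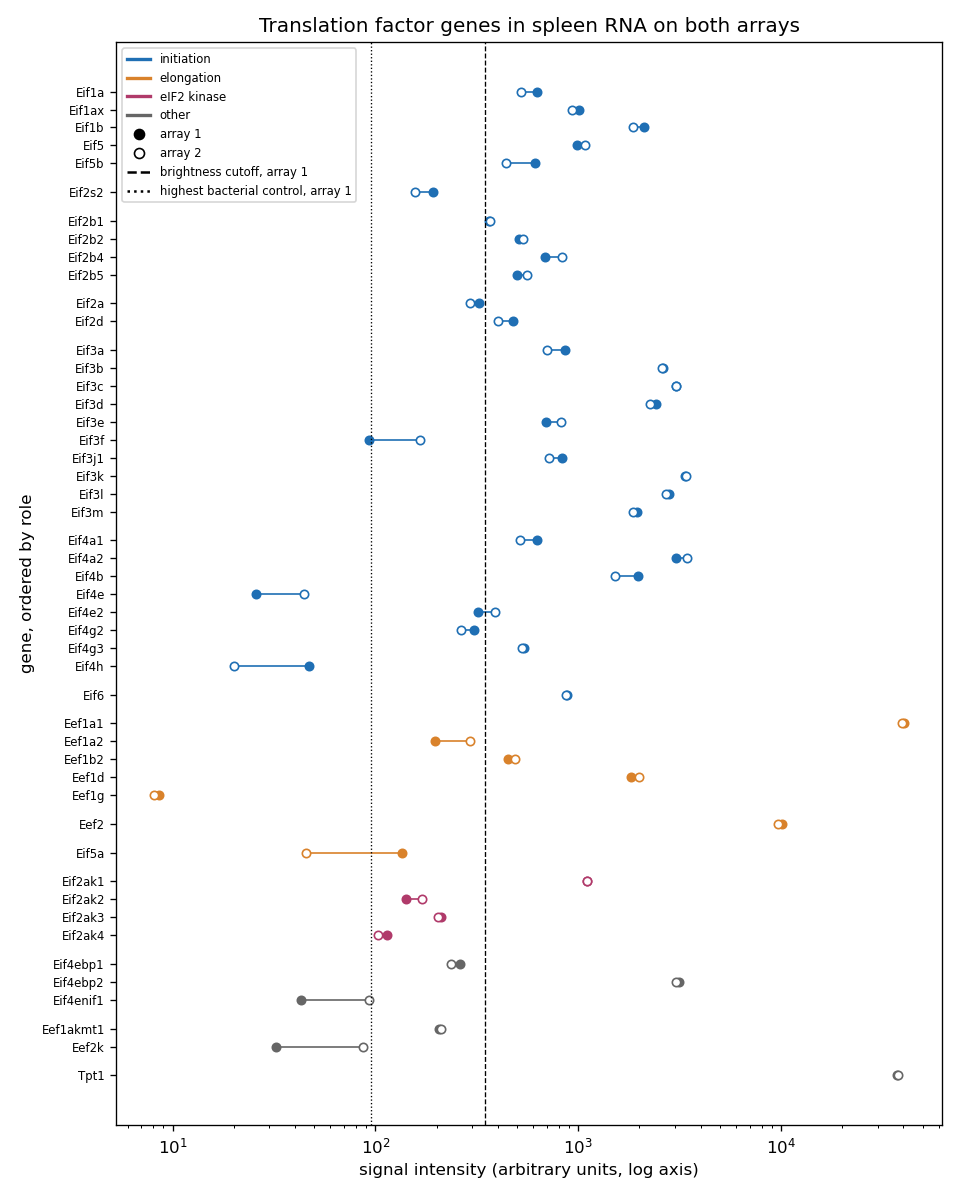
Signal intensity (arbitrary units, log axis) of each member gene on array 1 (filled) and array 2 (open), ordered by role and coloured by class. The dashed line is the brightness cutoff of array 1 at 346.32 and the dotted line its control limit at 95. Nearly all eIF3 genes lie right of the dashed line, whereas only Eif2ak1 does so among the eIF2 kinases.

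The sequences at the start sites of some members are shown first, because transcripts of elongation factors, of Tpt1 and of several initiation factors are known for a pyrimidine tract at their capped end, the 5′ terminal oligopyrimidine motif through which mTOR controls their translation. In the RefSeq promoter table of build GRCm38.p6, 40 of the 48 members had an entry and were kept. Members on a chromosome set aside were left out of these 40, whereas the backgrounds below kept its genes. The longest run of C or T that begins with C was taken in the window from 25 bases before to 50 bases after each annotated start, on the transcript's strand only, since the motif is one of RNA. A run of at least 8 bases was found for 13 of 40 members, or 32.5%, for 25.6% of the 6576 genes on the array with an entry, taking the longest run where a gene has several start sites, and in 21.5% of all 32851 promoters. The median longest run was 5 bases for members and 6 bases for genes on the array, so as a whole the members stood near that background. Among eIF3 subunits the run was present in 5 of 9, among elongation factors in 3 of 5 and among eIF2 kinases in 0 of 4. It was present in 0 of 4 start codon selection and joining genes, and in 1 of 7 cap binding and unwinding genes. The other eIF3 genes with an entry, Eif3b, Eif3c, Eif3d and Eif3j1, had runs of 5 bases and are not shown. The 30 bases around the run are given 5′ to 3′ with the run in capitals. They are shown for the eIF3 genes with a long run, for Eef1a1, Eef2 and Tpt1 as genes known for the motif, and for the 4 kinases. Whether a printed run is that motif was not tested.
Eif3f: ctgttctaggCTCTCTCTCTTTCTCggcaa
Eif3a: atcacgtggttCCTTCCTTTCCgtctctgg
Eif3k: gctgaaagcgCCTTTCCCTTTgccttcctt
Eif3m: tacggcaccgCTCTCTTTTCCggtcggcgt
Eif3l: tcttcttccgCTCTCTCCCacgggcttctg
Eef1a1: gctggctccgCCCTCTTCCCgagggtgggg
Eef2: cgtcagcggtCTCTTCCgccgcagccgccg
Tpt1: cggtgacgtagccgagcgtgCCCTCTatat
Eif2ak1: tggggcgggaCTTCCgttggctcttgtgtt
Eif2ak2: gcgggaggggCCCagagcagtgtgggaagg
Eif2ak3: acgcacggaaCCCTCgctcaatgggcgatg
Eif2ak4: cgggctggagCTCCCCTacccaccccagaa

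The run was 15 bases in Eif3f, 11 in each of Eif3a, Eif3k and Eif3m, 10 in Eef1a1, 9 in Eif3l, 7 in Eef2 and Eif2ak4, 6 in Tpt1, 5 in Eif2ak1 and Eif2ak3, and 3 in Eif2ak2. The longest among the members kept, 19 bases, lay in Eif2b5, an eIF2B subunit, across its annotated start. The Eif3f window lies on chromosome 7 at chr7:108934401-108934430 on the plus strand, that of Eef1a1 at chr9:78481710-78481739 on the minus strand, and that of Eef2 at chr10:81176636-81176665 on the plus strand. In Eif3f the run began 4 bases before the annotated start and in Eef2 at base 16 after it. It began 5 bases before the start in Eef1a1, and at base 41 after it in Tpt1. Among the other eIF3 genes shown it began at base 5 in Eif3l, 14 in Eif3k and 32 in Eif3a. The Eif3m run began 20 bases before the annotated start and ended before it. Annotated starts can lie away from the capped end in these cells, and the arrays did not measure transcript ends. A run is therefore a description of the letters, and its absence says only that these letters are not in the window. Of the 13 members with a run of at least 8 bases, 7 were bright, beside 31 of all 48 members, or 64.6%. The latter share also counts members outside the 40 searched for a run, so the sets are not the same.

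Subunits of eIF3, the scaffold that joins the small ribosomal subunit to the mRNA, were bright in 9 of 10 cases, with a median log2 signal of 11.04. Eif3k gave 3371.5 on array 1 and 3374.7 on array 2, and Eif3c, a subunit of the core, gave 3043.9 and 3033.1. Eif3b, also of the core, gave 2599.5 and 2594.1. These 3 genes differed by less than 1.01-fold between the arrays. Eif3l gave 2810 and 2717.2, and Eif3d, which can itself bind the cap of some mRNAs, gave 2407.9 and 2261. Eif3m gave 1950.1 and 1851.8. Eif3l, Eif3d and Eif3m were slightly higher on array 1, with log2 differences (array 2 minus array 1) of -0.05, -0.09 and -0.07. Eif3a, the largest subunit, gave 859 and 704.3, and Eif3j1, the loosely bound subunit, gave 829.9 and 720.1. Eif3e gave 690 and 824.1 and was higher on array 2, as was Eif3k by less than 1.01-fold. The other bright eIF3 genes were higher on array 1, Eif3b and Eif3c by less than 1.01-fold too. The other probe set of Eif3e gave 32.2 and 137.6, below the control limit on array 1. The exception to brightness was Eif3f, at 92.5 and 165, below the control limit on array 1 and above it on array 2.

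Genes for start codon selection and joining of the large subunit were all bright by their brightest probe sets, 5 of 5, beside 45.2% of all named genes. Eif1b, a close relative of the scanning factor eIF1, gave 2111.9 on array 1 and 1854.7 on array 2. Eif1ax, which encodes an eIF1A on the X chromosome, gave 1002 and 933.7, and its relative Eif1a gave 627.9 and 520.3. Because the sequences of these relatives are similar, their probe sets may share signal. Eif5, which triggers GTP hydrolysis by eIF2, gave 985.2 and 1079.1. Eif5b, the GTPase that joins the subunits, gave 612.8 and 441.5. The other probe sets of Eif1ax, at 306.2 and 249.7, Eif1a, at 509.4 and 341.3, and Eif5b, at 232.3 and 234.4, were not bright. Of the 5 genes, 4 were higher on array 1, and Eif5 was higher on array 2, where 49.9% of all bright genes were higher. Eif6, which keeps the large subunit from joining too early, gave 876 and 871.7 and was bright.

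The eIF2 branch was read by fewer genes, and its parts differed in brightness. The exchange factor eIF2B had 4 measured subunits, all bright by their brightest probe sets, beside 45.2% of all named genes. Eif2b1 gave 362.9 and 366.5, only just above the cutoff on both arrays. Eif2b2 gave 507.7 and 531.5, Eif2b5, the catalytic subunit, gave 499.2 and 557.5, and Eif2b4 gave 684.8 and 834.6. By these probe sets all 4 were higher on array 2, by 0.02 to 0.29 on the log2 scale. Of all bright genes 49.9% were higher on array 2. The other probe set of Eif2b5 gave 268.3 and 208, a log2 difference of -0.37, so it was higher on array 1 and not bright. The beta subunit of eIF2 itself, Eif2s2, was not bright, at 191.9 and 155.8, and passed the control limit of each array. Eif2d, a factor that can deliver tRNA without eIF2, gave 477.7 and 401.1 and was bright. Eif2a, which like it acts outside the main route, gave 323.7 and 291.1 and was not.

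The 4 eIF2 kinases respond to different stresses, and all 4 passed the control limit of each array. Eif2ak1, the haem-regulated kinase HRI of red cell precursors, gave 1098 on array 1 and 1107.3 on array 2 and was bright. Eif2ak3, the kinase PERK of the endoplasmic reticulum, gave 210 and 204.1. Eif2ak2, the double-stranded RNA sensor PKR, gave 141.7 and 169.7. Eif2ak4, the amino acid sensor GCN2, gave 114.5 and 103.2. None of these 3 was bright on either array. Each kinase had 1 probe set, so no other reading of the gene was at hand. With the cutoff at the 50th or 75th percentile 1 of 4 was bright, beside 55.7% and 28.5% of all named genes, and likewise 1 on each array alone. With brightness set at the control limit all 4 counted as bright, beside 73.9% of all named genes. The split between Eif2ak1 and the others was thus kept at these percentile cutoffs and lost at the control limit.

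The eIF4 factors, which bind the cap and unwind the leader, were bright in 4 of 8 cases, near the share of all named genes. The helicase gene Eif4a2 gave 3034.2 and 3448.4, and its relative Eif4a1 gave 623.2 and 518.6 from a probe set whose suffix _r_at means that its probes were picked by relaxed rules. Eif4b, the helicase cofactor, gave 1963 and 1518.2. Eif4g3, a scaffold, gave 542.6 and 524.8 and completed the bright genes. Eif4g2, a scaffold relative that lacks the part binding eIF4E, gave 306 and 264. Eif4e2, a cap-binding relative of eIF4E, gave 321.5 on array 1 and 390.4 on array 2, so it passed the cutoff on array 2 alone and was the only member bright on a single array. The cap-binding protein gene Eif4e gave 25.7 and 44.6, and the cofactor gene Eif4h gave 47.2 and 20.1. Both lay within the range of the bacterial controls on both arrays, which gives an upper bound for these probe sets and no level.

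The elongation factors held both very bright genes and genes within the background. Eef1a1, which carries aminoacyl-tRNA to the ribosome, gave 40480.5 on array 1 and 39578.8 on array 2. Eef2, the translocase, gave 10109.6 and 9619. Eef1d, an exchange factor of eEF1A, gave 1819.7 and 1999.3. Eef1b2, another exchange factor, gave 449.1 and 487.5 from a probe set with the suffix _r_at. Its other probe set, with the plain suffix, gave 80.5 and 115.8, below the control limit on array 1 and not bright. By their brightest probe sets Eef1a1, Eef2, Eef1d and Eef1b2 were bright and differed by no more than 1.10-fold between the arrays. Eef1a2, the form of eEF1A known from muscle and neurons, gave 195.7 and 292.4 and was not bright. Eef1g, the structural subunit of the eEF1 complex, gave 8.6 and 8.1, below the median of the bacterial controls on both arrays. Eif5a, the hypusine-bearing factor that helps the ribosome through difficult peptide bonds, gave 134.6 and 45.3, above the control limit on array 1 and below it on array 2. Eef1g and Eif5a had 1 probe set each, and whether these low readings reflect the transcript or the probe set was not tested.

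Members that act on the factors, or bear their name, were bright in 2 of 6 cases. Tpt1, a protein that binds eEF1A among other partners, gave 37246.9 and 37602.8. Eif4ebp2, a repressor that holds eIF4E until mTOR phosphorylates it, gave 3133.8 and 3035.4. Its relative Eif4ebp1 gave 261.3 and 234.4 and was not bright. Eif4enif1, which carries eIF4E into the nucleus, gave 43.1 and 92.5, and Eef2k, the kinase that inhibits eEF2, gave 32.4 and 87.1. Both lay under the control limit on array 1 and over it on array 2. Eef1akmt1, a methyltransferase of eEF1A, gave 206.3 and 211.

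Related genes of the same pathway, from lists that hold none of the members, were mostly bright as well, where 45.2% of all named genes were. The lists of termination genes and of modifying enzymes were short, so their shares rest on few genes. Of the poly(A)-binding list 5 of 5 measured genes were bright, among them Pabpc1, the main cytoplasmic poly(A)-binding protein, at 17682 ± 1279, and its relative Pabpc4 at 2233 ± 353. The route from mTOR to the cap was bright in 11 of 12 genes, with the kinase Mtor at 486 ± 18.1 and its partner Mlst8 at 728 ± 128. Cytosolic tRNA synthetases were bright in 15 of 19, with Aars at 546 ± 39.0, whereas Cars at 229 ± 12.2 was not. Of genes acting in the stress response downstream of eIF2, 8 of 11 were bright. Its central factor Atf4 gave 2254 ± 80.8, and Atf3 gave 210.4 ± 24.2 and was not bright. Termination and recycling genes were bright in 4 of 6, with the release factors Etf1 at 1437 ± 113 and Gspt1 at 723 ± 146. Of the enzymes that modify Eif5a and Eef2, 2 of 3 were bright. Dhps, the first enzyme of hypusine synthesis, gave 112 ± 39.4 and was not bright, while Dohh, the second, gave 377 ± 15.1.

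**Figure D2:**
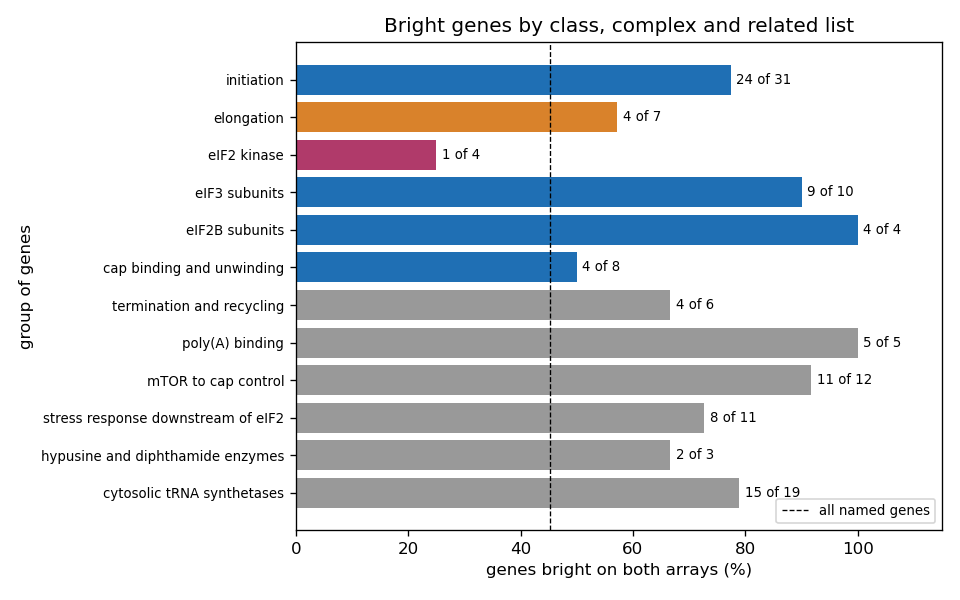
Share of genes bright on both arrays (%), with the count beside each bar, for the 3 classes, for 3 groups within the initiation class and, in grey, for related lists. The dashed line is the 45.2% of all 8251 named genes, and the eIF2 kinases, at 1 of 4, are the shown group below it.

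How far a gene's value rests on the probe set chosen could be read from the 14 members with several probe sets, 31 in all. In 8 of the 14 the brightest and dimmest probe sets were over 4-fold apart after the floor, beside 45.1% of the 2073 named genes with several. In 8 of the 14 some probe sets passed the control limit of each array and others did not, beside 44.6% of those genes. Eif3l was read at 2763.6 by one probe set and at 28.6 by the other, and Eif3b at 2597 and 12.7, as means of both arrays. The dim probe set carried the suffix _r_at for Eif3l and _i_at for Eif3b. Eif4b had 4 probe sets. A pair of them was designed from the same source sequence, and these gave 1963 and 1518.2 in the one with the suffix _g_at against 12.7 and 47 in the one with the plain suffix _at. The gene's other probe sets gave 544.4 and 558 with the suffix _r_at, and 21 and 7.8 with the plain suffix. Eif4ebp2 had 3 probe sets, at means of 3085, 740.2 and 81.6. Probe sets of Eif1a and Eif2s2 differed least among genes measured above the controls, by 0.46 and 0.32 on the log2 scale. For Eif4e both probe sets lay under the control limit of each array, so the gene has only an upper bound here.

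**Figure D3:**
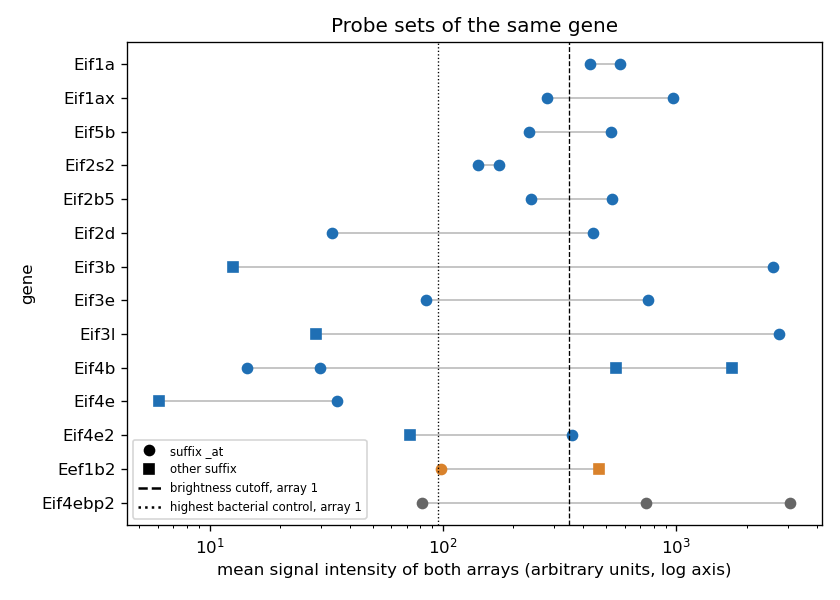
Mean signal intensity of both arrays (arbitrary units, log axis) of every probe set of the 14 members with several, 1 line per gene. Circles have the plain suffix and squares another suffix; the dashed and dotted lines are the brightness cutoff and the control limit of array 1. Both probe sets of Eif4e lie left of the dotted line, and the 4 of Eif4b fall on both sides of it.

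Between the arrays, bright members differed little. Differences are array 2 minus array 1 on the log2 scale, after subtraction of the median difference of the bright probe sets. The 31 bright members had a median difference of -0.03, with 12 higher on array 2 and 19 higher on array 1. Of all bright genes 49.9% were higher on array 2. The pooled SD of the bright members was 0.128, beside 0.152 for all bright genes. More than 25% apart were 2 of 31, beside 12.4% of the 3731 bright genes. These were Eif5b, at -0.47, and Eif4b, at -0.37, and both were higher on array 1. For both genes another probe set did not repeat the gap: the dimmer Eif5b probe set gave 232.3 and 234.4, and the second bright one of Eif4b gave 544.4 and 558. Probe sets that did not supply the value of their gene also held wider gaps: the second bright one of Eif4ebp2 gave 885.1 and 595.3, a log2 difference of -0.57, and the dimmer one of Eif1a gave 509.4 and 341.3, or -0.58. Eef1a1 differed by -0.03, Eef2 by -0.07, Tpt1 by 0.02 and Eif2ak1 by 0.01.

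Members that were not bright included wider gaps. After the floor of 41.8, 5 of these 17 members were more than 25% apart, beside 41.7% of the 4520 named genes that were not bright. The floor narrowed the gaps of members with a value under it. Eif4e, at 25.7 and 44.6, and Eif4h, at 47.2 and 20.1, are therefore not counted. The difference given for Eef2k is narrowed in the same way. Eif5a differed by -1.57, Eif4enif1 by 1.103, Eef2k by 1.06, Eif3f by 0.84 and Eef1a2 by 0.58. Over 4 equally large bins of all probe sets, ordered by mean signal, the spread pooled on the log2 scale was 0.142 (SD) in the top bin and 0.234, 0.522 and 0.230 in the next ones, the last of which holds floored values. The members fell into these bins, from the top down, as 22, 14, 8 and 4 genes. No condition differed between the arrays by the labels, and the source of these gaps was not tested.

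**Figure D4:**
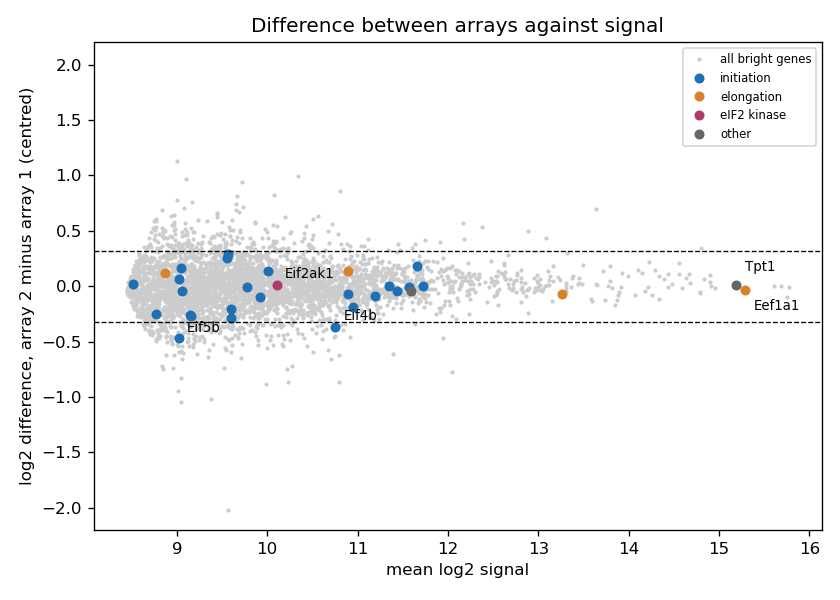
Log2 difference between the arrays (array 2 minus array 1, centred) against mean log2 signal for all 3731 bright genes (grey) and the 31 bright members, coloured by class. Dashed lines mark a difference of 25%; Eif5b at -0.47 and Eif4b at -0.37 are the members outside them, and Eef1a1 and Tpt1 lie near 0 at the right.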

How the data were processed

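The deposited table, which the authors provided as 1 linear signal intensity per probe set and array for 12488 probe sets, had a mean of 500.265 on array 1 and 500.278 on array 2 after the lowest and highest 2% were left out, so the deposited intensities had been scaled to a common target. The software and genome build are not given in the sources used here. The 66 probe sets with the AFFX prefix were controls. Gene names came from the platform annotation, and the identifiers of all 48 members were found in RefSeq of GRCm38.p6 with 0 symbols changed.

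Intensities were floored at the 20th percentile of their array (41.8 for each) and then log2-transformed. Members were classed by known function. The elongation class held Eif5a, Eef2 and the genes of the eEF1 complex, without the methyltransferase gene Eef1akmt1. Any member may be named; of the other lists the first 2 measured genes were named, and further ones by their range. The members, lists and settings were chosen with earlier results of these data known. With 1 group of 2 arrays no test was run, and precision is limited by the number of arrays. The calculation was checked on simulated data. Alternatives changed the floor, normalization, cutoff, probe sets, class rule or array used. Identity between related proteins was not analysed here. Python 3.11.15, numpy 2.4.6, pandas 2.3.3, statsmodels 0.14.6 and matplotlib 3.10.9 were used.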

Additional observations from a re-analysis of the deposited data

Results flagged for a closer look

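A probe set that names several genes, Eif4a3, Eif4a3l1 and Gm5576, entered no gene value and gave signal beyond the top bacterial control of each array. It gave 2271.2 on array 1 and 2114.3 on array 2, a mean of 2193 ± 111 (SD, n = 2). Eif4a3 encodes a helicase of the exon junction complex. The signal cannot be assigned to 1 of the 3 genes. With 1 group of 2 arrays, neither outlying arrays nor differences between groups were looked for.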

How the results depend on the processing

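Of 66 alternative values for 8 results, 53 stayed within 1.5 times the count or within 1 SD between the arrays, and 13 moved. For class medians this was the SD of the array medians, which also judged the single-array runs. For the median difference of -0.03 it was the pooled SD of all bright genes, 0.152, which is wide beside that value. The initiation count of 24 of 31 stayed by this rule, but it was lower in some runs. It was 17 with the mean over probe sets, beside 38.3% of all named genes, and 16 at the 75th percentile, beside 28.5%. The initiation median of 9.56 was 9.42 to 9.46 on single arrays, 9.59 with a pseudocount of 16, 8.93 with the mean of all probe sets of a gene, 9.16 without suffix-marked probe sets and 9.16 with classes by symbol alone. The elongation median of 8.87 became 7.90 with the mean over probe sets, beside 7.92 for all named genes, 7.90 without suffix-marked probe sets, beside 8.20, and 8.39 with classes by symbol alone. The median of the eIF2 kinases, 7.49, became 7.61 with the pseudocount, and their bright count of 1 became 4 with brightness set at the top bacterial control. Bright members over 25% apart, 2, became 1 with the cutoff at the 75th percentile and 7 with no brightness filter. The changes with probe sets, classes or cutoffs follow from the genes and values those settings admit. Initiation kept a median above that of all named genes in each alternative run, and the kinases one below it; elongation fell below it in the pair of probe set settings named. No paired analysis was possible because there is 1 group. The number of arrays, and signals near the bacterial controls for 7 members, limit what can be read.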
